A study of Homo sapiens with 24 samples.

Results

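The bins described here are the 1 kb stretches of the autosomes at which all 3 WT columns of an 8-oxoguanine sequencing (OG-seq) table lay below all 9 columns of cells lacking a DNA glycosylase. Each column was first divided by its mean over all bins, and a bin was a member if the highest of the 3 WT values was below the lowest of the 9 knockout values. There were 11631 members among 2687773 autosomal bins, or 0.433 % of them, out of 2835235 bins in the whole table. The members were chosen by these values, so the difference between WT and knockouts inside them is a description, also where limma values are given for it.

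OG-seq was run on 4 genotypes of HAP1, a human cell line with a nearly haploid genome that goes back to the leukemia line KBM-7. WT has both glycosylases, MUTYH-/ and OGG1-/ lack 1 each, and the double knockout DKO lacks both. The knockouts carry small CRISPR-Cas9 insertions or deletions and were used as 2 clones each, beside 2 clones of WT, and both DKO clones are listed as descending from 1 of the OGG1-/ clones. All cells were grown in the same medium, and the antioxidant butylated hydroxytoluene and the iron chelator deferoxamine were present while DNA was isolated. The sample titles list, for each genotype, 1 clone under both R1 and R2 and its other clone under R2 only. The table has 3 columns per genotype, which are not tied here to a clone or an experiment, so the spread between columns may be technical, clonal or both. Where n is given for a genotype it counts columns, which are not independent clones. Each deposited value is a score on a linear scale, made by the authors by subtracting scaled input reads from the reads of the pulled-down fragments (OG reads). Values are negative in bins with more scaled input than OG reads.

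8-oxoguanine (OG) is a common product of guanine oxidation, and its ability to pair with adenine makes it mutagenic. OGG1 is the glycosylase that removes OG opposite cytosine, which starts base excision repair. MUTYH removes the adenine that was inserted opposite OG, and so acts on the lesion after replication without removing OG itself. A bin with WT below every knockout column is the pattern that a stretch with more OG in every repair-deficient genotype would give, and 12 columns of noise give it too. By order alone, 3 given columns are the lowest of 12 in 1 of 220 bins, or 0.455 %, so the number and location of the members were set against those of every other choice of 3 columns.

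Reference sequences of members with the widest gap between WT and knockouts are shown first, because guanine is the base in which OG forms. The gap is the lowest knockout value minus the highest WT value, both divided by the column mean. Of the 5 members with the largest gaps, 4 are given with their middle 300 bases on the plus strand of GRCh38. The member with the second largest gap is not printed, because the stretch around its G-quadruplex motif holds annotated exons. Capitals mark runs of at least 3 G or 3 C.
Member 1 (MRTFA intron), chr22:40581351-40581650: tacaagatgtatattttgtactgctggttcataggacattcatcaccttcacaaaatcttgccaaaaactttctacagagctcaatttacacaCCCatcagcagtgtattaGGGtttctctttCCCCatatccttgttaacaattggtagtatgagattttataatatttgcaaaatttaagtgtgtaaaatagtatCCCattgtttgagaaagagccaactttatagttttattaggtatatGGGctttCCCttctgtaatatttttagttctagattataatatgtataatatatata
Member 3 (intergenic), chr5:127683351-127683650: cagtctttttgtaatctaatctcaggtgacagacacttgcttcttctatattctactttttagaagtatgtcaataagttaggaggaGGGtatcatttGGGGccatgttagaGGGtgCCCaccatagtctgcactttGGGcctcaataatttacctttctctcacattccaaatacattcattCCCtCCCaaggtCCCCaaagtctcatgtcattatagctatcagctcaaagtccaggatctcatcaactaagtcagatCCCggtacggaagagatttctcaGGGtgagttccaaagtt
Member 4 (intron of a lncRNA), chr5:176720351-176720650: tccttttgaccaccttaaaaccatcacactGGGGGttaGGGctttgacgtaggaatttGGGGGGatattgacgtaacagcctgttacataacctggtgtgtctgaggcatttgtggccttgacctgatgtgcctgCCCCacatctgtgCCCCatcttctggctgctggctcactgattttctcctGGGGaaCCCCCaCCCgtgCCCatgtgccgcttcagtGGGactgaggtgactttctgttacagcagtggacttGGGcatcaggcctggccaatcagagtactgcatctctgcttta
Member 5 (intergenic), chr12:23431351-23431650: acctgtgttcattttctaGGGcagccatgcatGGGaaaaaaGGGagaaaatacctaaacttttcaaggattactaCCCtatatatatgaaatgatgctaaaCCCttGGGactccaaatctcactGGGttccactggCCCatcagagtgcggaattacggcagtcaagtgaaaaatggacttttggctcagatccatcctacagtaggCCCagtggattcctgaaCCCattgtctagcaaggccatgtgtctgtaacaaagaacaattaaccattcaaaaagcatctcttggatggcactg
The 4 stretches were unlike in base composition, with GC contents of 30.3, 42.0, 53.3 and 43.7 % in the order printed. They held 2, 5, 6 and 5 runs of G and 4, 5, 5 and 5 runs of C. None of the 4 holds a G-quadruplex motif, searched as 4 runs of at least 3 G with loops of 1 to 7 bases on either strand. Over all members the motif was found in 9.48 % of bins, against 9.86 % of all autosomal bins.

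The count of members was not high among the choices of columns. The other choices held 12078 ± 925 bins (mean ± SD over choices, which share columns), from 9806 for WT1, WT3 and OG2 to 14788 for WT2, MU2 and DKO1. The 11631 members were 0.963 times that mean, and 145 of the other choices held more. The standing depended on the scaling, from the 20th highest count with no scaling to the 160th with columns divided by their median. Placed beside the other genotypes as whole sets, MUTYH-/ was below all other columns in 13485 bins (the 13th highest count of 220), DKO in 12108 (the 100th) and OGG1-/ in 11491 (the 156th). The opposite pattern, WT above all 9 knockout columns, held in 11568 bins, the 155th highest count. On chromosome X, which the rule leaves out, WT was below all knockout columns in 631 of 147462 bins (0.428 %), the 153rd highest share.

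**Figure D1:**
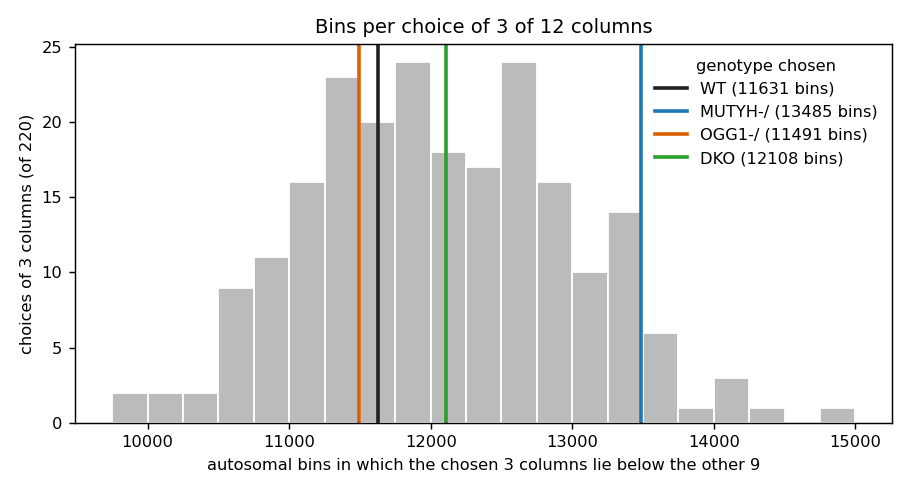
Histogram of the number of autosomal bins (x axis) in which a choice of 3 columns lies below the other 9, over all 220 choices (y axis, number of choices), with vertical lines at the 4 genotypes. WT (11631 bins), OGG1-/ (11491) and DKO (12108) lie in the body of the distribution, and MUTYH-/ (13485) lies in its upper part.

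Columns differed in how often they were low. WT2 was among the lowest 3 columns in 26.5 % of bins, the most of any column, whereas WT1 and WT3 were there in 23.6 % and 23.8 %. The range over the 12 columns was 23.5 to 26.5 %. A model with 1 weight per column and exactly 3 low columns in each bin was fitted to these rates, which include the members themselves. It gave 11435 members, and the observed number was 1.02 times that. The same ratio ran from 0.946 to 1.10 over the choices, and WT had the 36th highest.

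At the members, the mean scaled value was -0.308 in WT1, -0.419 in WT2 and -0.381 in WT3, where 1 is the mean of all bins. In the 9 knockout columns it lay between 1.57 and 1.67. By genotype, WT averaged -0.369 ± 0.0563 (SD, n = 3), MUTYH-/ 1.65 ± 0.0289, OGG1-/ 1.62 ± 0.0413 and DKO 1.64 ± 0.0343. The 3 knockout genotypes were thus close to each other and above the mean of all bins. WT values were below 0 in 67.3 to 70.7 % of the members, and knockout values in 4.45 to 5.66 %. Over all bins of the table the shares were 21.97 to 24.45 % in the WT columns and 22.64 to 24.74 % in the knockout columns. The rule selects bins with WT lowest, so a higher share in WT and a lower share in the knockouts are built in. A typical member was therefore a bin at which the scaled input exceeded the OG reads in WT, not a bin with a small positive WT score.

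The gap was small in most members. Its median was 0.234 of a column mean (0.213 to 0.255 over the other choices), and 419 members had a gap above 1, against a median of 427 for the other choices. The largest gap of 2.77 was the 73rd largest among the 220 choices, whose maxima ran from 2.05 to 8.39. Just inside the limit lay chr13:29530001-29531000 in SLC7A1, which encodes a cationic amino acid transporter. Its highest scaled WT value was 0.246738 and its lowest scaled knockout value 0.246771 (2.06 and 2.38 as deposited). The next, at chr4:82598001-82599000 between genes, had scaled values of 0.948252 and 0.948372 (7.0 and 9.15 as deposited). Just outside lay chr1:58062001-58063000 in an intron of DAB1, an adaptor of reelin signaling. Its scaled values were -0.492102 in WT1 and -0.492159 in OG2 (-3.46 and -4.35 as deposited). The other was the intergenic bin chr3:162453001-162454000, with scaled values of -0.118484 in WT1 and -0.118543 in MU3 (-0.834 and -0.979 as deposited).

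Whole OG and input reads could be recovered from the deposited values. Over all bins the columns held 21, 22.9 and 30.4 OG reads per bin in WT1 to WT3 and 26.6 to 40.2 in the knockout columns, with 27.7 to 35.8 input reads. WT1 and WT2 thus had the fewest OG reads per bin of the 12 columns. At the members, WT columns had 14.1, 14.8 and 24.1 OG reads, which is 0.672, 0.649 and 0.793 of their own means. Knockout columns had 1.12 to 1.17 times theirs. Input moved the opposite way, to 1.16, 1.16 and 1.24 times the column mean in WT and 0.958 to 0.973 in the knockouts. Low OG reads and high input reads thus both contributed to the low WT scores.

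**Figure D2:**
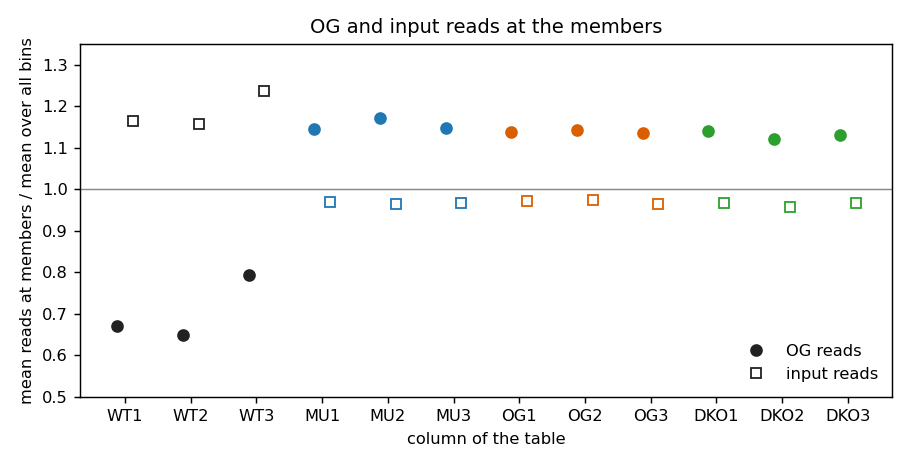
Mean OG reads (filled circles) and input reads (open squares) at the members divided by the mean over all bins of the same column (y axis), for each of the 12 columns (x axis), colored by genotype. In the 3 WT columns the OG points lie at 0.649 to 0.793 and the input points at 1.16 to 1.24, while all knockout points lie between 0.958 and 1.17.

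Both parts belong to any choice of 3 low columns. The difference of WT from the knockouts in relative OG reads was -0.437, against a median of -0.377 and a range of -0.466 to -0.312 over the other choices, the 6th lowest of 220. In input reads the difference was 0.220, with a median of 0.233. When OG reads were used alone, without input, WT was below all knockout columns in 21069 bins, 1.75 times the mean of the other choices and the 5th highest count. Input reads alone placed WT below in 14446 bins, 1.20 times the mean and the 2nd highest. On the log2 ratio of OG to input reads the count was 15194, 1.25 times the mean and the 8th highest, and 88.0 % of the members were among these bins. The 3 counts on reads were chosen after the data were seen. Their relation to the lower OG depth of WT1 and WT2 was not tested.

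The members had slightly more GC than the genome, by less than many other choices of columns. Their mean GC content was 41.8 %, against 41.0 % over all autosomal bins, and the other choices ran from 37.9 to 44 % with WT the 57th highest. AT-rich bins were scarcer than in most choices, with 15.7 % of the members below 35 % GC against 20.7 % of all bins (the 191st highest share). Bins of 40 to 45 % GC made up 27.1 % of the members, against 24.2 % of all bins, and no other choice had a higher share (up to 27.0 %). CpG dinucleotides, the sites of DNA methylation, were at 10.3 per kb in the members and 9.93 per kb in all bins, the 79th highest.

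Counted the other way, 0.331 % of the bins below 35 % GC were members, 0.490 % of those with 40 to 45 % GC and 0.525 % of those with 50 to 55 % GC. All 3 shares lay within the ranges of the other choices (0.291 to 0.810 %, 0.352 to 0.602 % and 0.193 to 0.862 %). Among the 193119 bins at which every column was above 0, which leaves out bins with excess input, 1041 were members (0.539 %). That was the 28th highest share, within a range of 0.322 to 0.608 %.

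Gene features held the members nearly in proportion to their bins. Promoters, taken as the stretch from 1000 bp upstream to 100 bp downstream of a transcript start, held 249 members (2.14 %, against 1.93 % of all bins), the 54th highest share of 220. Coding exons held 127 (1.09 % against 1.11 %) and untranslated regions 123 (1.06 % against 1.03 %). Non-coding exons held 109 members, 0.937 % against 0.805 %, the 24th highest. Introns held 6230 members (53.6 % against 53.4 %) and intergenic stretches 4547 (39.1 % against 39.6 %). By its density of members, no feature lay outside the range of the other choices.

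Chromosomes were also alike. The share of their bins that were members ran from 0.357 % on chromosome 13 and 0.366 % on chromosome 22 to 0.498 % on chromosome 16 and 0.505 % on chromosome 19. The 31028 tied bins, of which 29340 were at 0 in every column, belong to no choice and lower the values of chromosomes 13 and 22 for every choice (medians of 0.388 % and 0.341 %). The lowest standing was that of chromosome 14, where 340 of 87058 bins were members (0.391 %), the 207th highest of 220, in a range of 0.334 to 0.588 %. Chromosome 16 stood highest, with the 51st highest share. As shares of the members, the measure ranked for gene features, chromosomes 9 and 16 were each the 24th highest and chromosome 14 the 215th.

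**Figure D3:**
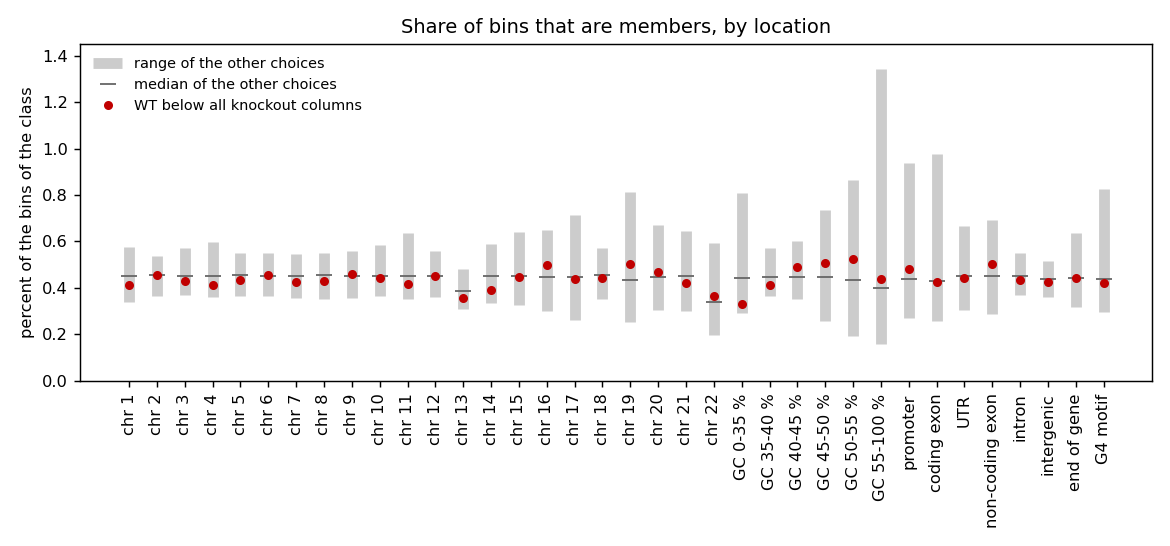
Percent of the bins of each chromosome, GC class and gene feature (x axis) that were members (red points), with the range (gray bars) and median (dashes) of the same percent over the other choices of 3 columns. Every red point lies inside its gray bar.

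The bins beside the members were compared too. The values are means over all members, which cannot show longer low stretches around a few of them. In the bins 1 kb away, the scaled value in WT minus that in the knockouts was -0.218 on the lower-coordinate side and -0.205 on the other. The medians of the other choices were -0.208 and -0.206. A read that overlaps a border was counted in both bins, so direct neighbors share reads. From 2 kb outwards to 20 kb the difference stayed between -0.00959 and 0.0182. Pooled over 1 to 5 kb it was -0.0412, the 89th lowest of 220. Over 6 to 20 kb it was 0.00484, the 141st lowest of 220.

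**Figure D4:**
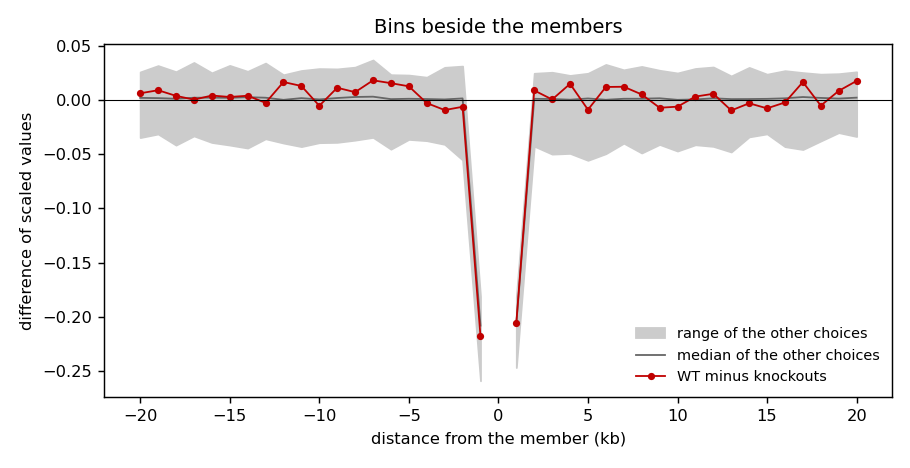
Difference of scaled values between WT and knockout columns (y axis) in bins from 20 kb below to 20 kb above the members (x axis, kb), with the range (gray) and median (line) of the other choices. Only the bins 1 kb away are low, at -0.218 and -0.205, and the points lie within the gray range.

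Members seldom touched. There were 93 bookended pairs, where placing the members independently would give 50.3, and the other choices had a median of 97. No run of 3 or more members was found, and the other choices had 0 to 4. The pair with the widest mean gap, picked after its values were seen, lay at chr11:77122001-77124000 in an intron of CAPN5, a calcium-dependent protease. Averaged over its 2 bins, the WT columns lay between -0.626 and 2.38 and the knockout columns between 15.5 and 40.3. In larger windows the pattern was rarer than in most choices. WT was below all knockouts in 1081 of 269104 windows of 10 kb (the 178th highest count), 78 of 27048 windows of 100 kb (the 169th) and 4 of 2763 windows of 1 Mb (the 139th). The medians over all choices were 1188, 98 and 6.

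Megabase windows with at least 500 bins held 4.30 ± 2.12 members (SD, n = 2694 windows), and 64 held 0. The variance was 1.04 times the mean, the 206th highest of the 220 choices. The highest share was 1.58 %, with 10 of 634 bins at chr19:27000001-28000000, which holds no protein-coding gene. Next came chr10:131000001-132000000 with TCERG1L, PPP2R2D and BNIP3, and chr20:49000001-50000000 with 12 protein-coding genes, among them the zinc finger factor SNAI1. Both had 13 members in 1000 bins (1.30 %). Windows at chr2:53000001-54000000 and chr4:104000001-105000000 had 12 each (1.20 %). Single choices reached up to 21 bins in a window, with a median maximum of 14.

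The other bins of these 5 windows gave no common direction. In the chromosome 19 window they averaged 0.893 in WT (0.809 to 0.936) and 0.921 in the knockouts (0.857 to 0.987). In the chromosome 20 window the values were 1.37 (1.33 to 1.40) and 1.46 (1.27 to 1.67). In the chromosome 2 window WT was higher, 0.859 against 0.846, and likewise in the chromosome 4 window, 0.635 against 0.632. In the chromosome 10 window WT was at 1.15 (1.07 to 1.22) and the knockouts at 1.22 (1.13 to 1.39). In all 5 windows the columns of WT and knockouts overlapped.

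The member with the largest gap lay at chr22:40581001-40582000 in an intron of MRTFA, which encodes an actin-regulated coactivator of serum response factor. Its deposited values were -8.02, -11.3 and -4.78 in WT1 to WT3 and 43.4, 18.3 and 37.3 in MU1 to MU3. They were 20.5, 34.1 and 24.8 in OG1 to OG3 and 18.3, 20.6 and 27.4 in DKO1 to DKO3. WT was thus at -8.05 ± 3.28 (SD, n = 3) and the knockouts together at 27.2 ± 9.12 (n = 9). The OG reads were 10, 10 and 30 in WT and 40 to 68 in the knockouts, and the input reads were 45, 43 and 46 in WT and 14 to 40 in the knockouts. WT was outside the knockout range in both kinds of reads. Its GC content was 34.4 %, the lowest of the 10.

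The member with the second largest gap lay at chr22:22811001-22812000 in an intron of the lncRNA ENSG00000289120, over the exons of the immunoglobulin lambda variable gene IGLV3-10. WT values were -9.71, -8.85 and -10.2. Knockout values ran from 11.2 in MU2 over a median of 23 to 45.8 in OG1. OG reads in WT were 6, 4 and 11, against 29 to 59 in the knockouts, whereas input reads of 39, 26 and 28 in WT overlapped the knockout range of 18 to 38. It was the only one of the 10 with a G-quadruplex motif and had 52.7 % GC.

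The next 2 lay on chromosome 5. At chr5:127683001-127684000, 18971 bp from the nearest annotated protein-coding or lncRNA gene, WT values were -8.02, -2.32 and -2.51 and knockout values 18.5 to 37.6. At chr5:176720001-176721000, in an intron of the lncRNA ENSG00000248484, WT values were -0.204, -8.93 and -0.193 and knockout values 21.7 to 52.8. WT input reached 73 reads there in WT1, against 21 to 60 in the knockouts. In all 10 members with the largest gaps each WT value was below 0 and each knockout value above 0.

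**Figure D5:**
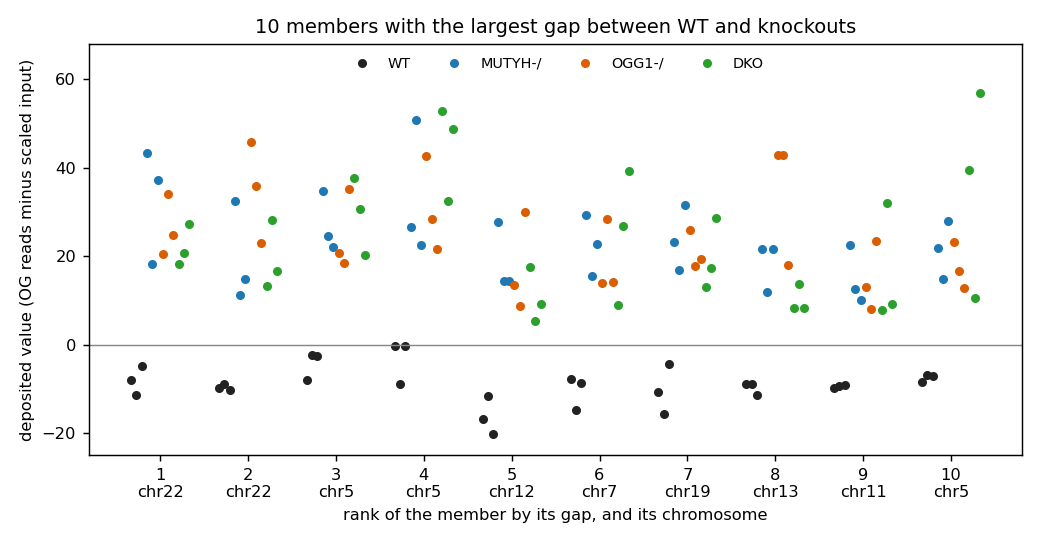
Deposited values (y axis, OG reads minus scaled input) of the 10 members with the largest gap (x axis, by rank, with the chromosome), with 1 point per column colored by genotype. All WT points lie below 0 and all knockout points above it, and these members were chosen for this gap.

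The remaining 6 of the 10 lay on chromosomes 12, 7, 19, 13, 11 and 5. chr12:23431001-23432000 lay 97503 bp from SOX5, a transcription factor of cartilage and neuron development, and had the lowest mean WT value of the 10, with -16.8, -11.6 and -20.3, against 5.40 to 29.9 in the knockouts. chr7:132120001-132121000 lay 2339 bp from PLXNA4, a semaphorin receptor, with WT at -7.86, -14.8 and -8.69 and the knockouts at 9.0 to 39.3. chr19:14398001-14399000 held coding exons of ADGRE5, an adhesion receptor of leukocytes, with WT at -10.7, -15.6 and -4.32 and the knockouts at 13.1 to 31.6. chr13:21338001-21339000 lay in introns of LINC00539 and another lncRNA (WT -8.90, -8.85 and -11.4). chr11:93353001-93354000 lay within DEUP1, which serves centriole formation in multiciliated cells (WT -9.88, -9.25 and -9.03). chr5:115639001-115640000 lay 6008 bp from TMED7, a cargo receptor of the early secretory pathway (WT -8.42, -6.87 and -7.05). Knockouts ranged from 8.21 to 42.8, from 7.84 to 32.1 and from 10.6 to 56.8 in these last 3.

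Most genes held no member. Of 35800 autosomal genes with at least 1 bin, 5554 held a member, among them 3774 protein-coding genes. RBFOX1, a neuronal splicing regulator, held the most with 15 of 2473 bins, where the share of all bins would give 10.7. PTPRD, a receptor tyrosine phosphatase, and CNTNAP2, a neurexin family adhesion protein, held 12 each (9.95 and 9.97 at that share). TBC1D5, a regulator of Rab GTPases, the lncRNA ENSG00000231918 and DLG2, a postsynaptic scaffold, held 11 each (5.57, 5.95 and 9.40). NTM, a neural adhesion protein, MAGI2, a scaffold, DAB1, an adaptor of reelin signaling, and ROBO2, an axon guidance receptor, held 10 each (4.17, 6.22, 6.72 and 7.54). All 10 genes had at least 964 bins. They were picked as those with the most members, so that each held more than the share of all bins would give is no result.

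By share among the 9203 genes of at least 50 bins, GLT8D2, which encodes a glycosyltransferase-like protein, stood first with 5 members in 75 bins (6.67 %). It was followed by the lncRNAs ENSG00000284608 (3 of 55) and ENSG00000249022 (3 of 58), by VTA1, which acts in endosomal sorting (4 of 78), and by CUL4A, the scaffold of a ubiquitin ligase with roles in DNA repair (3 of 59). These shares rest on 3 to 5 bins each, and 3959 of the 9203 genes held at least 1 member.

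Lists of genes related to OG held members in 0.185 to 0.589 % of their bins, beside 0.433 % of all autosomal bins. Base excision repair genes, 22 on autosomes, held 1 member in 540 bins (0.185 %, 2.34 at the share of all bins). Genes of the oxidative stress response held 8 in 1358 (0.589 %, 5.88), 1 each in ARNT, SLC7A11, GCLC, TXN, HIF1A, NQO1, KEAP1 and FTL. Genes with known promoter G-quadruplexes held 3 in the 554 bins of their bodies (0.542 %, 2.40), among them 1 each in SIRT1 and HIF1A. DNA damage response genes held 7 in 1567 (0.447 %, 6.78). The 11 very long autosomal genes, several of them at common fragile sites, held 85 in 19546 (0.435 %, 84.6), with 1 or more members in each.

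Of the 1700 bins at an exon or the 1 kb upstream stretch of a listed gene, 10 were members. Over all autosomal bins 11631 of 2687773 were (0.433 %). In base excision repair the member was a bin of MUTYH itself, the glycosylase gene edited in MUTYH-/ and DKO, at chr1:45339001-45340000. The bin overlaps an exon, has 53.4 % GC and holds 2 G-quadruplex motifs. Its values were -4.19, -4.81 and -7.68 in the WT columns. MUTYH-/ had 16.0, 21.7 and 9.33, OGG1-/ had -3.44, 34.8 and 20.7, and DKO had 15.4, 1.89 and 13.6. OG1 was thus below 0 and close to WT. Input reads were 58, 46 and 51 in WT and 22 to 58 in the knockouts.

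In the oxidative stress list, KEAP1, the sensor that holds NRF2 in check, had a member at chr19:10486001-10487000 with WT at -0.282, -0.519 and 9.70 and the knockouts at 15.3 to 38.7. FTL, the ferritin light chain, had one at chr19:48965001-48966000 that also reached its upstream stretch (WT 8.34, 7.47 and 0.076, knockouts 10.7 to 29.6). HIF1A, the oxygen-regulated transcription factor, had one with WT at -5.07, -2.99 and 0.731 and knockouts from 1.69 to 21.4. In the damage response list, ERCC2, a helicase of nucleotide excision repair, had one at chr19:45370001-45371000 (WT -4.45, -4.05 and -4.24, knockouts -1.59 to 36.6). PMS2 and FANCD2 had one each at an exon, as had SIRT1 and DLG2 in the other lists. Knockout values were wholly positive at the bins of KEAP1, FTL, HIF1A, PMS2, FANCD2, SIRT1 and DLG2, while MU2 was below 0 at ERCC2.

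Each knockout was also compared with WT bin by bin by limma, on log2 values with a pseudocount of 1 and on all 2802495 bins that passed a filter on low values. The filter kept 11630 of the 11631 members. The 3 comparisons share the WT columns, and the members were selected on the same contrast, so these counts are a description. With a p limit of 0.01 and a log2 fold change limit of 0.5, limma called 2119 members as gain in MUTYH-/ (18.2 % of members, against 0.3 % of all bins), 2172 in OGG1-/ (18.7 % against 0.299 %) and 2271 in DKO (19.5 % against 0.296 %). In at least 1 knockout, 4213 members were called (36.2 %, against 0.725 % of all bins), and 0 were called as loss. Without the filter on low values, 6520 members were called in at least 1 knockout, and the calls over all bins rose from 20314 to 31673. The median log2 fold change of the members was 2.91 in MUTYH-/, 2.90 in OGG1-/ and 2.94 in DKO. With a pseudocount of 5 it was 1.508, 1.499 and 1.520 in the same order, so its size depended on the pseudocount. A rule that asks for full separation of the columns thus left most members short of the limma limits in any single knockout.

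Benjamini-Hochberg adjustment by limma left few gains below 0.05 over all tested bins. They were 6 in MUTYH-/ (0.000214 %), 6 in OGG1-/ (0.000214 %) and 2 in DKO (7.14e-05 %). Bins passing as loss were not counted. Among the gains was 1 member in each knockout. It was the same bin, chr16:74361001-74362000 in an intron of the lncRNA ENSG00000290890, and it is named after its values were seen. Its values were -3.75, 20.3 and -0.726 in the WT columns. MUTYH-/ had 91.5, 44.5 and 53.6, OGG1-/ had 48.1, 37.3 and 70.9, and DKO had 33.8, 35.7 and 50.1. WT2 stood above the other WT columns and below the knockouts. The bin held 74 to 130 input reads in WT and 90 to 136 in the knockouts, against column averages of 27.7 to 35.8 over all bins. The part of this in the result was not tested. The log2 fold changes were 4.40, 4.05 and 3.70, with adjusted p of 0.000993, 0.0230 and 0.0474 in MUTYH-/, OGG1-/ and DKO. In the limma fit WT1 and WT3 entered at 0, because values below 0 were set to 0, while WT2 did not. The fit took the variance from the trend over all bins, so the spread of the WT columns at this bin did not enter these p values. With a pseudocount of 5, the lowest adjusted p over all members was 0.466, 0.709 and 0.353 in the same order, so the call was lost. The members with the 10 largest gaps did not pass, with adjusted p from 0.0619 upwards.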

How the data were processed

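OG-seq was deposited as 1 table of 1 kb bins with 12 columns for the 12 pull-down samples (3 per genotype), each made with its input sample. Per the labels and the methods of the study, adapters were trimmed with cutadapt 2.8, reads were mapped to GRCh38 with Bowtie2 2.3.5.1, and reads overlapping each bin were counted with bedtools. The authors then scaled input reads by signal extraction scaling, subtracted them and removed blacklisted bins, so a deposited value is a score in OG reads that can be negative. Columns were divided by their mean over all bins. The lowest 3 of the 12 columns were found for each bin, which places every untied bin in exactly 1 of 220 choices. The rule and the limma fit were run on simulated reads with counting noise and no variation between clones or experiments. That run checks the code, not how either behaves on these data. OG and input reads were solved as whole numbers from each column's 2 input factors (tolerance 1e-08), and at most 1 bin per column could not be solved.

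Features came from GENCODE v44 protein-coding and lncRNA genes (38726 genes), by the centre of a bin, and sequences from the GRCh38 reference. GC content needed at least 500 called bases. A bin belonged to a gene if its centre lay in it, and to an exon or upstream stretch if it overlapped it. Named were the 10 members with the largest gap, 2 bins on each side of the limit, runs of at least 3 members, the 5 megabase windows with the highest share, the 10 genes with the most members, the 5 genes of at least 50 bins with the highest share, and members at an exon or upstream stretch of a listed gene. The printed stretch of a bin is its middle, or the stretch around its G-quadruplex motif where it has one, and stretches with an annotated exon were left out. The limma fit used log2 values with values below 0 set to 0, a pseudocount of 1, bins above 0 in at least 3 columns, a mean-variance trend and all 4 genotypes. Its prior degrees of freedom were infinite, so each bin took the variance of the trend. Count models were not used, because the values are not counts. Python 3.11.15, numpy 2.4.6, pandas 2.3.3, matplotlib 3.10.9, R 4.3.3 and limma 3.58.1 were used. Alternatives changed the scaling, the filter, the window, the columns, the neighbor distance and the pseudocount. The members, gene lists and tests were chosen with earlier results of these data known. RNA-seq and mass spectrometry were not analysed here. Some listed genes are not reported here.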

Additional observations from a re-analysis of the deposited data

How the results depend on the processing

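The count of members relative to the mean of the other choices (0.963) moved by more than 1 SD over those choices under 7 of 26 alternatives. It was 1.11 with no scaling of the columns, where WT1 and WT2 have the lowest means (13389 members, the 20th highest count). With columns centred and divided by their SD it was 1.03 (the 36th highest), on ranks 1.00 and with values below 0 set to 0 1.03 (both the 71st), and with columns divided by their median 0.950 (the 160th). In sums over 100 kb windows it was 0.640, and over 1 Mb windows, an alternative added after seeing the data, 0.321. Also added after seeing the data, the value was 1.25 when recovered reads were used as a log2 ratio, 1.75 with OG reads alone and 1.20 with input reads alone. It ran from 0.842 to 0.991 without 1 column each. There were 55 choices with a WT column left out and 165 with a knockout column left out. The lowest value came without WT replicate 2, where the count was the 54th highest of 55. The difference in GC content (0.840 percentage points) stayed within 1 SD of the other choices under all 22 alternatives, and ran from 0.440 to 1.15 without 1 column each. That SD was larger than the difference itself, so the limit would be met even with no difference. It was 2.04 with values below 0 set to 0, 1.62 with no scaling, 0.297 centred within GC strata and 0.0580 with recovered reads as a log2 ratio.

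The difference beside the members (-0.0412 over 1 to 5 kb, the 89th lowest) is in the units of each scale, so its standing among the 220 choices is given too. It was -0.0185 with columns divided by the median (the 205th lowest), -1.87 with no scaling (the 5th), -0.0277 with columns centred and divided by their SD (the 130th), -0.00773 on ranks (the 124th) and -0.0307 with values below 0 set to 0 (the 92nd). It was -0.0513 with members left in among the neighbors and 0.00484 at 6 to 20 kb. Without 1 column each it ran from -0.0427 to -0.0101. Members called by limma in at least 1 knockout (4213) numbered 6520 with no filter on low values, 2841 to 2973 without 1 WT column each, 3522 with a pseudocount of 5 and 4987 with no scaling. The calls over all bins (20314) were 31673, 19732 to 23569, 23858 and 27951 in the same order. No paired analysis was possible because the column numbers are not tied to the replicate numbers, clones or experiments of the labels. The depth of 21 to 40.2 OG reads per bin limits what a single bin can show. The cause of each move was not tested.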

Other observations

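The choice of columns that was lowest most often in large windows was not a genotype. MU1, OG2 and DKO2 were below the other 9 columns in 1885 windows of 10 kb, 673 of 100 kb and 469 of 1 Mb, where the medians over all choices were 1188, 98 and 6. The 3 columns are of 3 different genotypes.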
